A study of Homo sapiens with 4 samples.

Results

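Zinc is held at a low free concentration in the cytosol by 3 groups of proteins, and the transcripts of all 3 groups were followed here in U87MG cells with and without chaetocin. Members were the protein-coding genes named *MT1* plus a letter, *MT2A*, *MT3*, *SLC30A* or *SLC39A* plus a number, and *MTF1*. This rule gave 35 of the 57905 genes counted: 10 metallothioneins, 10 exporters of the SLC30A family, 14 importers of the SLC39A family and the regulator *MTF1*. U87MG is an established human glioblastoma (GBM) line, labelled as wild type and used at passages 8-10. It was grown in DMEM with 10% FBS, and 2 samples were left untreated while 2 received 50 nM chaetocin, dissolved in DMSO, for 24 h. The control cells are described as untreated rather than as given DMSO, so the effect of the solvent and that of chaetocin cannot be told apart. Chaetocin is a fungal metabolite with disulfide bridges. The paper describes it as inhibiting histone methyltransferases unspecifically, SUV39H1 among them, and also the thioredoxin reductase TXNRD1. It reports more reactive oxygen species with chaetocin and unchanged H3K9 trimethylation. Poly(A)-selected RNA was sequenced in single-end reads of 50 bases, and the labels do not say whether the 2 samples of a group came from separate cultures or days. The p-values therefore measure the spread between these samples, which may be technical.

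Metallothioneins are small, cysteine-rich proteins that bind zinc, copper and cadmium through their thiol groups and also react with oxidants. SLC30A proteins (ZnT) move zinc out of the cytosol, either across the plasma membrane or into organelles, and SLC39A proteins (ZIP) move it in. MTF1 is a zinc-sensing transcription factor that binds metal response elements in the promoters of metallothionein genes and of *SLC30A1*, so zinc-loaded cells are known to raise both.

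The promoter windows of *MT2A* and *MT1X* are shown because these metallothioneins of 1 cluster gave different values with chaetocin, and that of *SLC30A1* because it is the textbook MTF1 target among the exporters. Each is the 250 bases before the RefSeq start site, read 5′ to 3′ on the strand of the gene in GRCh38.p14. Capitals mark matches on either strand to the core of the metal response element, searched as TGCACNC and TGCGCNC. The windows are chr16:56608334-56608583 on the plus strand for *MT2A*, chr16:56682220-56682469 on the plus strand for *MT1X* and chr1:211579162-211579411 on the minus strand for *SLC30A1*.
MT2A: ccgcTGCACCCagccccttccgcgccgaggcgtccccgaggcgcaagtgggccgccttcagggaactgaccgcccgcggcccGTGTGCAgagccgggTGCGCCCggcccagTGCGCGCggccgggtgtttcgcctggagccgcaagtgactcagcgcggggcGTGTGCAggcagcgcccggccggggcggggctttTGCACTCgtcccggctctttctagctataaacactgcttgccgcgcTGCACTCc
MT1X: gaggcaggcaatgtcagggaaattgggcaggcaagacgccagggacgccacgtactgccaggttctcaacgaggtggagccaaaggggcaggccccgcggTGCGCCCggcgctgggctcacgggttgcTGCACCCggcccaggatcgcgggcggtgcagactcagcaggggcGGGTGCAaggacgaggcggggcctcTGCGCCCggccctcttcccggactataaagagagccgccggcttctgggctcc
SLC30A1: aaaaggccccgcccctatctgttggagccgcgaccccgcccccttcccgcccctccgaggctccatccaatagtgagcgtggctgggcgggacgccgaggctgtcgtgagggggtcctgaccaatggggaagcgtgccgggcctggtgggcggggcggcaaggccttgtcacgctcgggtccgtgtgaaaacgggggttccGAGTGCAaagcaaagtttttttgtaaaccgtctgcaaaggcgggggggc
The *MT2A* window held 7 matches, that of *MT1X* 4 and that of *SLC30A1* 1. Among 35116 RefSeq promoter windows of the same length, 24.8% held at least 1 match and 0.37% held at least 4. Windows were found for 26 of the 35 members, of which 11 held a match and 15 held none. No window was found for *MT1E*, *MT1F* or *SLC39A14*, the members called lower below. All 4 metallothionein windows found had at least 3 matches, with 8 in *MT1H* and 3 in *MT1B*, both of which had 0 reads in every sample. A match describes the letters in the window and not a bound site.

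Total counts ranged from 21241984 to 32590479 per sample, and 3 counts corresponded to between 0.0844 and 0.138 normalized CPM (counts scaled to the library totals of the tested genes multiplied by TMM factors). The glioblastoma markers *VIM*, *CD44*, *NES*, *TNC*, *SOX9*, *S100A6* and *LGALS1* summed to 10580 and 8892 CPM in control and to 7176 and 4830 CPM in chaetocin samples. *GFAP*, an astrocyte marker, had at most 25 reads, *S100B* at most 2, and *CDKN2A* and *CDKN2B*, which U87MG is known to have lost, had 0 reads. Of 8 leukocyte markers, *PTPRC* and *ITGAM* were higher with chaetocin, and *CD3E* and *AIF1* had 0 reads throughout. The leukocyte list summed to 0.492 and 0.592 CPM in control and to 2.62 and 3.10 CPM in chaetocin samples, and 3 neuronal markers to 59.5 and 52.7 against 42.6 and 25.1 CPM. The sums were 0.942 and 0.974 against 1.75 and 2.53 CPM for 3 epithelial markers, of which *KRT5* had 0 reads, and 0.861 and 1.29 against 2.11 and 3.15 CPM for 2 endothelial markers. Of these genes *CDH1*, *EPCAM* and *VWF* were higher at an unadjusted p under 0.05 and not at an adjusted p (edgeR, 0.139, 0.24 and 0.126). The part of these lists in the results below was not tested.

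Of the 35 members, 26 had enough reads to be tested. At an adjusted p under 0.05 (edgeR's quasi-likelihood test with Benjamini-Hochberg adjustment over 16416 genes), 3 of them were lower with chaetocin and 0 were higher. The genes that fell were the metallothioneins *MT1E* and *MT1F* and the importer *SLC39A14*. Among all genes tested, 0.743% were called lower and 1.11% higher, 1.85% in all. At an unadjusted p under 0.05, 8 members were lower and 2 higher, beside 9.42% and 10.9% of all genes. DESeq2's Wald test called 5 members lower and 1 higher, beside 2.93% and 2.35% of all genes. Both chaetocin samples lay below both control samples in 12 of the 26 members and above them in 3, where the shares over all genes were 26% and 26.8%. The median log2 fold change was -0.72 over the 7 tested metallothioneins, -0.02 over the 7 exporters and -0.29 over the 11 importers, beside 0.008 over all genes. The metallothionein median is the value of 1 weakly expressed gene, *MT1G*, which had 8 to 49 reads in a sample. Leaving out chaetocin sample 1 or 2 gave medians of -0.84 or -0.41 for metallothioneins, 0.09 or -0.14 for exporters and -0.52 or -0.09 for importers. Members had to pass the filter on low counts to enter these numbers, and the members were chosen with earlier results known, so they are a description.

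The number of members called differed between settings, and so did that of all genes. Where a sample was left out, its group had 1 sample, which was assumed to vary like the other group, so these calls rest on the spread of 1 pair. No call held without control sample 1, where the adjusted p was 0.0565 for *MT1E*, 0.0774 for *MT1F* and 0.187 for *SLC39A14* (edgeR), with 0.538% of all genes lower and 1.2% higher. Without control sample 2, *MT1E* and *MT1F* were called and *SLC39A14* was not (adjusted p = 0.114), beside 0.868% lower and 1.24% higher. Without chaetocin sample 1, 10 members were lower and 1 higher, beside 9.48% and 7.55% of all genes, and without chaetocin sample 2 these were 6 and 1, beside 5.59% and 4.23%. A replicate block gave 7 lower and 1 higher, beside 6.41% and 6.31%, and dropping the filter on low counts gave 7 and 1, beside 2.39% and 2.48%. With RLE size factors 3 members were lower and 0 higher, beside 0.737% and 1.08%. At least 10 counts in every sample left 2 lower and 0 higher, beside 0.552% and 0.787%, and protein-coding genes alone 2 and 0, beside 0.707% and 1.12%.

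**Figure D1:**
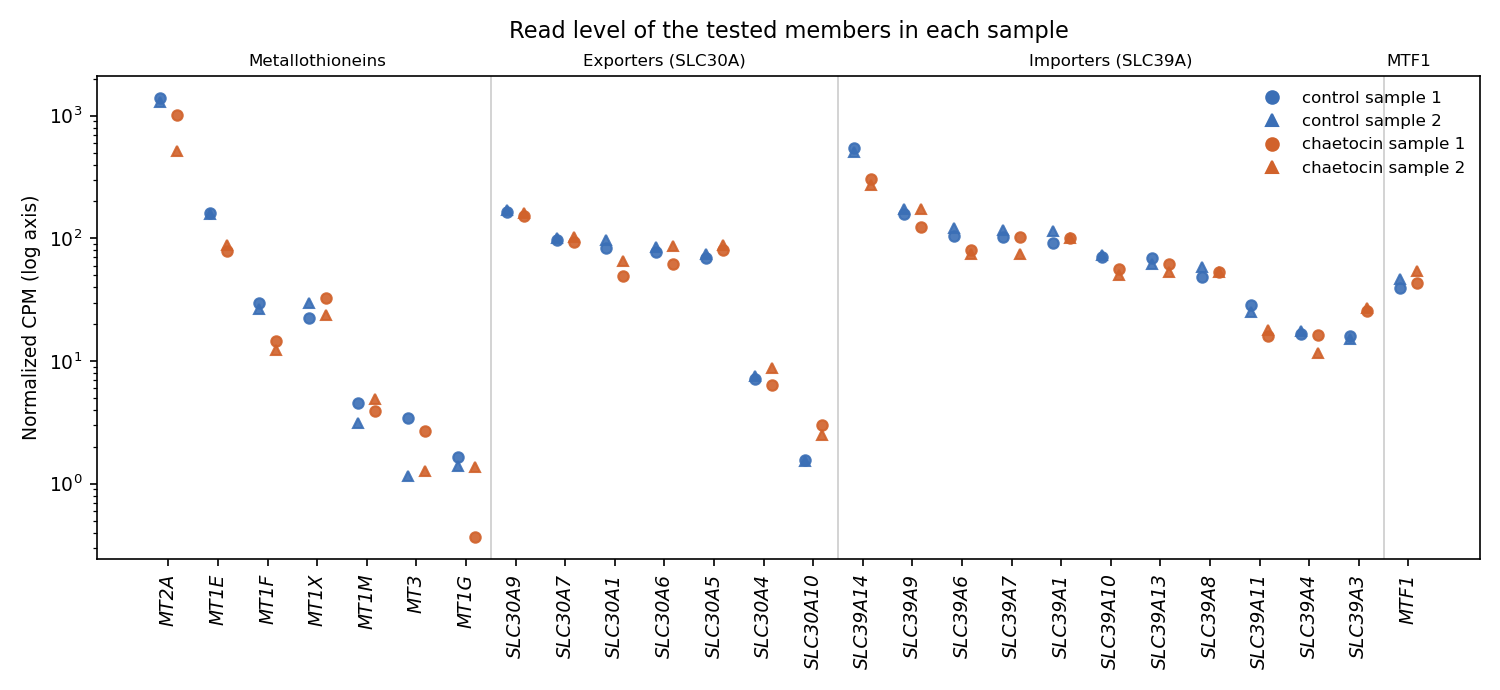
Normalized CPM (log axis) of the 26 tested members in each of the 4 samples, grouped by class and ordered by the control mean within each class, with control in blue and chaetocin in orange. The chaetocin points of MT1E, MT1F and SLC39A14 sit below both control points, and those of MT1X and MTF1 overlap with the controls.

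The metallothioneins were ranked by CPM per kilobase of annotated exon. The length is that of all annotated exons of a gene merged, which can exceed that of a transcript, so the order is approximate. In control cells *MT2A*, the ubiquitous metallothionein, stood at a level of 1037 CPM per kb, followed by *MT1E* at 152. *MT1F* and *MT1X* were next with levels of 14.9 and 14.7 CPM per kb, and the ranges of their control samples overlapped (14.1 to 15.7 and 12.7 to 16.6). *MT1M* had a level of 4.08, *MT1G* of 2.02 and *MT3*, the brain-enriched form also called growth inhibitory factor, of 1.25 CPM per kb. The control samples of the last 2 overlapped, at 2.19 and 1.86 for *MT1G* and at 1.87 and 0.625 for *MT3*. By CPM alone their order was the reverse, with control means of 1.52 for *MT1G* and 2.30 for *MT3*. *MT1A* had at most 3 reads in a sample, and *MT1B* and *MT1H* had 0, which at these depths allows up to 0.138 CPM. Most metallothionein reads came from *MT2A*, which gave between 79.9% and 88.4% of all metallothionein reads in each sample.

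*MT1E*, a zinc- and cadmium-inducible isoform, was at 160 and 159 CPM in the control samples and at 78.7 and 87.7 CPM in the chaetocin samples. Both chaetocin samples were near the same level, well below the controls. The log2 fold change was -0.94 (standard error 0.14, 95% interval -1.27 to -0.61, edgeR adjusted p = 0.0306), a 1.92-fold lower level with chaetocin. *MT1F* had 29.7 and 26.6 CPM without and 14.7 and 12.3 CPM with chaetocin. Its groups did not overlap either, and it fell by 1.06 on the log2 scale (standard error 0.18, 95% interval -1.47 to -0.65, edgeR adjusted p = 0.0341).

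*MT2A* was at 1403 and 1291 CPM in control and at 1017 and 521 CPM in chaetocin samples. Both chaetocin samples were lower than both controls, but they differed from each other by more than the nearer one differed from the controls. The log2 fold change of -0.81 (standard error 0.30, 95% interval -1.49 to -0.13) did not pass the threshold in edgeR (adjusted p = 0.181). DESeq2's Wald test gave -0.83 with an adjusted p of 0.0326. The value was -1.37 without chaetocin sample 1 (edgeR adjusted p = 0.000119) and -0.41 without chaetocin sample 2 (0.141). *MT2A* was also called lower by edgeR with a replicate block (adjusted p = 0.00505) and without a filter (0.000554).

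*MT1X*, another inducible isoform, was not called. Its levels were 22.5 and 29.5 CPM in control and 32.8 and 23.6 CPM in chaetocin samples, so the groups overlapped. The log2 fold change was 0.11, and its 95% interval of -0.38 to 0.60 does not reach the changes of *MT1E* and *MT1F*. Per *MT1X* read, the controls held 62.3 and 43.8 reads of *MT2A* and the chaetocin samples 31.0 and 22.1, a ratio that does not depend on library size. *MT1E* gave 7.08 and 5.40 reads per *MT1X* read in control and 2.398 and 3.72 with chaetocin. For *MT1F* this ratio was 1.32 and 0.90 in control and 0.447 and 0.522 with chaetocin. The groups did not overlap in any of the 3 ratios. The chaetocin samples of all 3 numerators already lay below the controls, so the ratios largely repeat the values above. The exact two-sided permutation test gave p = 0.333 for each. This is the smallest value that 2 samples against 2 allow, so the test cannot decide.

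The weakly expressed metallothioneins had wide intervals. *MT1M* had 111 and 90 reads in control and 86 and 174 in chaetocin samples, with a log2 fold change of 0.21 (95% interval -0.45 to 0.88). *MT1G* had 40 reads in each control sample but 8 and 49 with chaetocin, and *MT3* had 84 and 33 against 58 and 45. The intervals of both genes, -2.0 to 0.56 for *MT1G* and -1.52 to 1.04 for *MT3*, include the change of *MT1E* as well as 0. *MT1G* had a log2 fold change of -0.72, which was -2.03 without chaetocin sample 2 (edgeR adjusted p = 0.0575) and -0.13 without chaetocin sample 1.

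**Figure D2:**
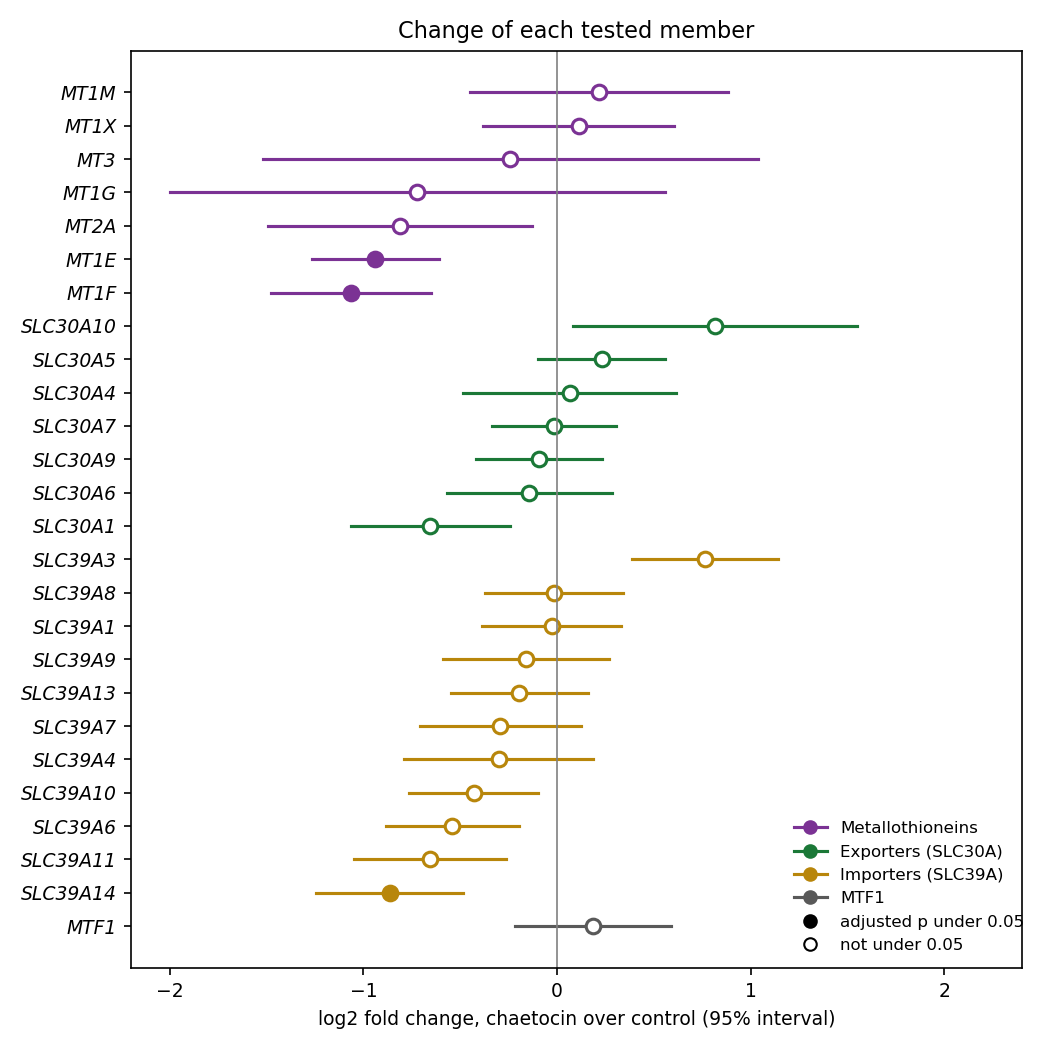
Log2 fold change (chaetocin over control) of each tested member with its 95% interval from edgeR, colored by class, with filled circles for an adjusted p under 0.05. MT1E (-0.94), MT1F (-1.06) and SLC39A14 (-0.86) are filled, and the exporters other than SLC30A1 and SLC30A10 have intervals that include 0.

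Metallothionein genes resemble each other, and how reads with several matches were counted is not given in the sources used here. The share of distinct 50-base words in the transcripts of a gene that also occur in another gene's transcripts was 7.10% for *MT1E*, 1.22% for *MT1F*, 3.02% for *MT2A* and 18.3% for *MT1X*. For *MT1X* most of this was shared with an overlapping transcript model of the same strand that had 0 reads in every sample. Summing the 18 counted genes and pseudogenes of the *MT1* and *MT2* families into 1 row gave 1655 and 1544 CPM in control and 1179 and 670 CPM in chaetocin samples. That row had a log2 fold change of -0.79 (95% interval -1.41 to -0.17, edgeR adjusted p = 0.155).

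All 10 metallothionein members lie within 1 cluster on chromosome 16, from 56589074 to 56684196 in GRCh38 by GENCODE v29. The 2 called genes were not next to each other in it. *MT1E* starts 36.4 kb from the start of *MT3* and *MT1F* 68.6 kb, with *MT1M* between them at 43.2 kb. *MT1X* closes the cluster at 93.4 kb. Of the pseudogenes, 2 were tested and 0 called by edgeR or DESeq2, with 0 at an unadjusted p under 0.05. *MT1L* had 809 and 910 in control and 663 and 652 reads in chaetocin samples (log2 fold change -0.41, 95% interval -0.95 to 0.12), and *MT1JP* had a value of -0.28 (-1.56 to 0.99).
Of 17 neighbouring genes within 250 kb of the cluster, 6 were tested and 0 were called by edgeR, with 1 lower at an unadjusted p under 0.05 and 1 called lower by DESeq2, beside 9.42% and 2.93% of all genes. The genes next to the cluster, *BBS2*, *OGFOD1* and *NUP93*, had log2 fold changes of -0.13, -0.25 and -0.15. *HERPUD1*, an endoplasmic reticulum stress gene 343 kb from the start of *MT3*, had the lowest value of the 6 at -0.84 (edgeR adjusted p = 0.0882).

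**Figure D3:**
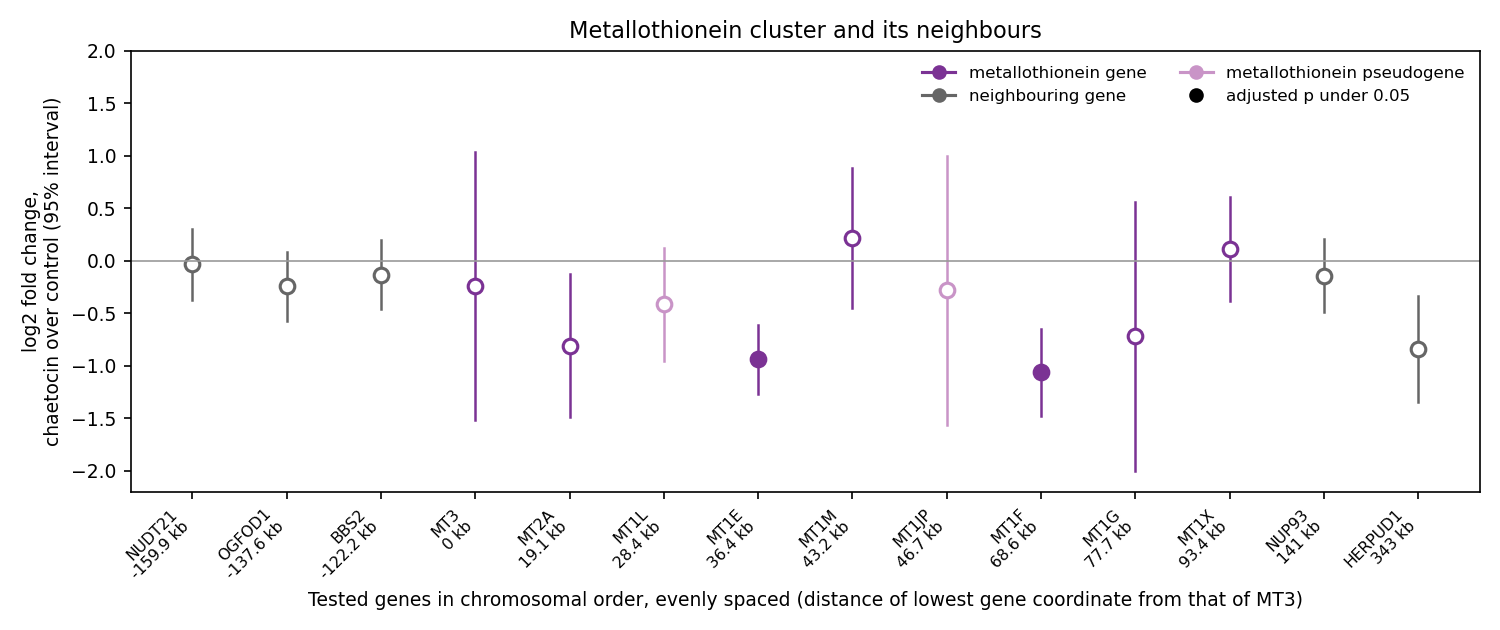
Log2 fold change with 95% interval of the metallothionein cluster and its neighbours from NUDT21 to HERPUD1, tested genes only, in chromosomal order and evenly spaced, with the distance in kb from MT3 under each name and filled circles for an adjusted p under 0.05. MT1E and MT1F are filled, MT1M and MT1X lie above 0, and NUDT21, OGFOD1, BBS2 and NUP93 lie between -0.25 and -0.04.

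Of the 10 exporters, 7 were tested and 0 passed the threshold in edgeR. At an unadjusted p under 0.05, 1 was lower and 1 was higher, beside 9.42% and 10.9% of all genes, and DESeq2 called 1 lower and 0 higher, beside 2.93% and 2.35%. Levels per kb in control were 23.2 CPM for *SLC30A9*, 16.6 for *SLC30A1*, 15.1 for *SLC30A6*, 12.4 for *SLC30A5* and 11.8 for *SLC30A7*, whereas *SLC30A4* (0.905) and *SLC30A10* (0.268) were low. Control samples overlapped between *SLC30A1* and *SLC30A6* and between *SLC30A5* and *SLC30A7*.

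*SLC30A1* exports zinc across the plasma membrane. It had 83.9 and 97.3 CPM in control and 49.2 and 65.8 CPM in chaetocin samples, and both chaetocin samples were lower than both controls. It had a log2 fold change of -0.65 (standard error 0.18, 95% interval -1.07 to -0.24), with an adjusted p of 0.0978 in edgeR and 0.0378 in DESeq2. Over all alternatives the adjusted p of *SLC30A1* ran from 0.00202 (edgeR with a replicate block) to 0.41 (without control sample 2). Set against the Golgi transporter *SLC30A7*, there were 0.867 and 0.958 reads of *SLC30A1* per read in control and 0.522 and 0.646 with chaetocin. The exact two-sided permutation test gave p = 0.333, the smallest possible, so it cannot decide.

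Intracellular exporters had smaller values, with intervals that include 0. *SLC30A7* was at 96.7 and 102 CPM in control and at 94.3 and 102 CPM with chaetocin (log2 fold change -0.02, 95% interval -0.34 to 0.31). *SLC30A5* and *SLC30A6*, which form a heterodimer in the early secretory pathway, had log2 fold changes of 0.23 (95% interval -0.10 to 0.56) and -0.14 (-0.57 to 0.28). The values were -0.09 (-0.42 to 0.23) for *SLC30A9* and 0.07 (-0.48 to 0.62) for the endosomal *SLC30A4*.
*SLC30A10*, which exports manganese, had 38 and 44 reads in control and 65 and 88 with chaetocin. At 1.56 and 1.53 against 2.99 and 2.48 CPM the groups did not overlap, with a log2 fold change of 0.82 (95% interval 0.08 to 1.55, edgeR adjusted p = 0.206). The remaining exporters had too few reads to be tested. *SLC30A3*, which fills synaptic vesicles, had 0 and 8 reads in control and 7 and 30 with chaetocin, and *SLC30A2* and *SLC30A8*, known from secretory epithelium and from insulin granules, had at most 10 and 6 reads in a sample.

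Of the 14 importers, 11 were tested, with 1 called lower and 0 higher by edgeR, beside 0.743% and 1.11% of all genes, and 4 lower and 1 higher at an unadjusted p under 0.05, beside 9.42% and 10.9%. DESeq2 called 1 lower and 1 higher, beside 2.93% and 2.35%. *SLC39A14* takes up iron and manganese as well as zinc and was the most abundant importer in control cells, at 75.8 CPM per kb against 38.4 for *SLC39A7*, the next in order. *SLC39A6* (30.7) and *SLC39A1* (30.4) followed with overlapping control samples, then *SLC39A9* (23.2), *SLC39A13* (14.4), *SLC39A10* (10.4) and *SLC39A8* (8.29), with *SLC39A11*, *SLC39A3* and *SLC39A4* at 3.41 to 4.79 CPM per kb. Its levels were 550 and 503 CPM in control and 305 and 273 CPM in chaetocin samples, groups that lay far apart for their spread. *SLC39A14* had a log2 fold change of -0.86 (standard error 0.17, 95% interval -1.24 to -0.49, edgeR adjusted p = 0.0458), a 1.82-fold lower level. Over the alternatives with all 4 samples the adjusted p ran from 0.000107 (DESeq2) to 0.0562 (edgeR with at least 10 counts in every sample). It was 0.0518 in edgeR with protein-coding genes only. Without control sample 1 or 2, where the call was lost, the log2 fold change was -0.81 or -0.94. The share of *SLC39A14* in all importer reads was 43.7% and 39.3% in control and 32.3% and 30% with chaetocin. *SLC39A8*, its closest relative in the family, was at 48.6 and 58.8 CPM in control and at 53.4 and 52.9 CPM with chaetocin, with a log2 fold change of -0.02 (95% interval -0.37 to 0.34). Per read of *SLC39A8* there were 11.3 and 8.55 reads of *SLC39A14* in control and 5.72 and 5.17 with chaetocin. The exact two-sided permutation test gave p = 0.333, the smallest possible, so it cannot decide.

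*SLC39A6* and *SLC39A10* form a plasma membrane complex. *SLC39A6* had 105 and 121 CPM in control and 81.1 and 74.5 CPM with chaetocin, a log2 fold change of -0.54 (95% interval -0.88 to -0.20, edgeR adjusted p = 0.0992). *SLC39A10* had 70.6 and 73.6 CPM against 56.8 and 50.3 CPM, with -0.43 (-0.77 to -0.10, adjusted p = 0.152). *SLC39A11* was at 28.4 and 25.1 CPM in control and at 15.99 and 17.96 CPM with chaetocin (-0.65, interval -1.05 to -0.26, adjusted p = 0.0878). In all 3 genes both chaetocin samples were below both controls. None passed the threshold in edgeR with all 4 samples, the filter and no block, or in DESeq2, where their adjusted p ranged from 0.0596 to 0.186. *SLC39A6* and *SLC39A11* were called lower by edgeR without a filter (adjusted p = 0.0318 and 0.0222), with a replicate block (0.0131 and 0.011), without chaetocin sample 1 (0.00877 and 0.0288) and without chaetocin sample 2 (0.0443 and 0.0184). *SLC39A10* was called without chaetocin sample 1 (edgeR adjusted p = 0.0158).

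*SLC39A3*, a plasma membrane importer, had a positive value. It was at 16.1 and 15.2 CPM in control and at 25.8 and 27.2 CPM in chaetocin samples, without overlap. This gave a log2 fold change of 0.76 (standard error 0.16, 95% interval 0.39 to 1.14), with an adjusted p of 0.057 in edgeR and 0.0237 in DESeq2. Over all alternatives the adjusted p of *SLC39A3* ran from 0.00267 (edgeR with a replicate block) to 0.329 (without control sample 2). An overlapping gene model of the same strand covers 436 of its 4552 exon bases.
Importers of the secretory pathway had intervals that include 0. The value was -0.29 (95% interval -0.71 to 0.12) for *SLC39A7*, which releases zinc from the endoplasmic reticulum, -0.16 (-0.59 to 0.27) for the Golgi protein *SLC39A9* and -0.20 (-0.55 to 0.16) for *SLC39A13*. *SLC39A4*, the intestinal zinc importer mutated in acrodermatitis enteropathica, had -0.30 (-0.79 to 0.18). Leaving out 1 sample at a time moved *SLC39A7* between -0.53 and -0.09 and *SLC39A4* between -0.56 and -0.08, and without chaetocin sample 1 both were called lower (edgeR adjusted p = 0.0149 and 0.0485). *SLC39A1* had -0.03 (-0.39 to 0.33), and 60.3% of its 50-base words also occur in other transcript models, chiefly an overlapping model of the same strand. *SLC39A2*, *SLC39A5* and *SLC39A12* had at most 13, 10 and 5 reads in a sample and were not tested.

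*MTF1* itself was at 39.2 and 46.3 CPM in control and at 43.0 and 54.2 CPM with chaetocin. The groups overlapped, and the log2 fold change was 0.19 (95% interval -0.21 to 0.59, edgeR adjusted p = 0.597). Leaving out 1 sample at a time gave 0 to 0.34.

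The 3 classes were then set beside each other as summed CPM, given without a test since the members were chosen with results known. Metallothioneins summed to 1624 and 1512 CPM in control and to 1150 and 652 CPM in chaetocin samples. Without *MT2A* the sums were 222 and 221 against 133 and 131 CPM, so the spread between the chaetocin samples came from *MT2A*. Importers summed to 1257 and 1281 against 945 and 910 CPM, and without *SLC39A14* to 707 and 778 against 640 and 637 CPM. Exporters summed to 502 and 539 CPM in control and to 449 and 516 CPM with chaetocin, and these ranges overlapped. The log2 ratio of the exporter sums was -0.11, and 0.06 when library totals alone were used for scaling.
Metallothionein reads per exporter read were 3.24 and 2.81 in control and 2.56 and 1.26 with chaetocin, lower in both treated samples. Per importer read they were 1.29 and 1.18 in control and 1.22 and 0.716 with chaetocin, so chaetocin sample 1 lay within the control range. Without *MT2A*, metallothionein reads per importer read were 0.1763 and 0.1725 in control and 0.1409 and 0.1441 with chaetocin, without overlap. Exporter reads per importer read were 0.399 and 0.421 in control and 0.475 and 0.567 with chaetocin. In sums of bulk RNA, fewer expressing cells and less RNA per cell cannot be told apart.

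**Figure D4:**
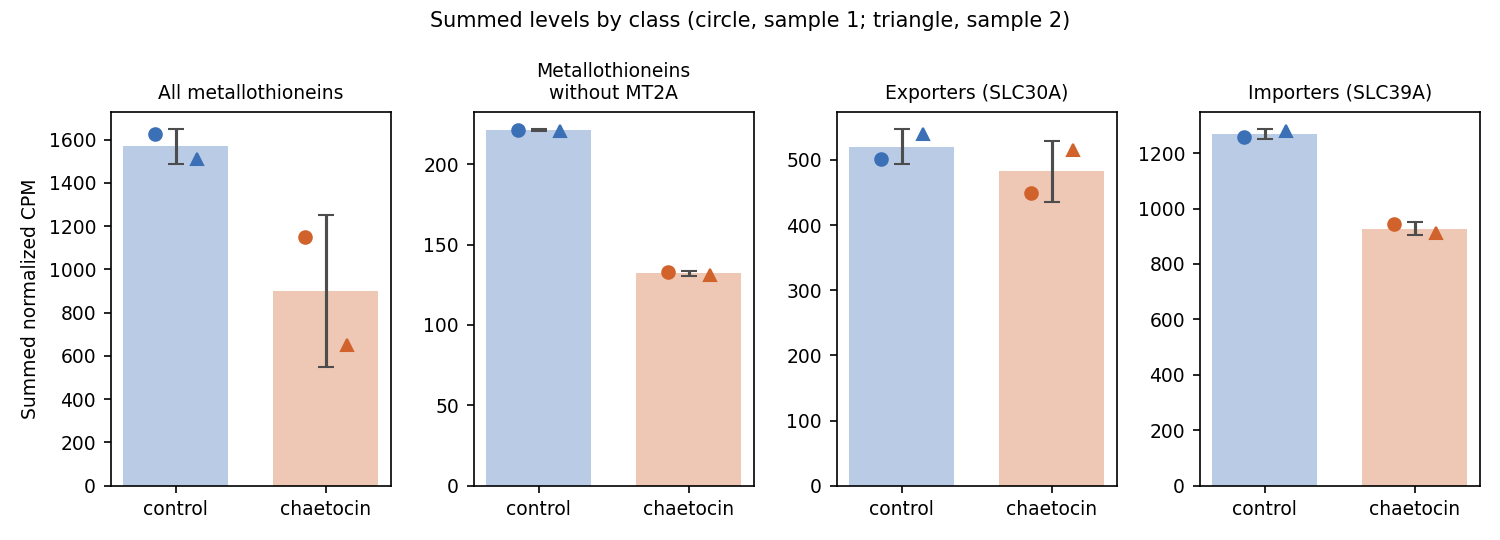
Summed normalized CPM of all metallothioneins, of the metallothioneins without MT2A, of the exporters and of the importers, with bars for the group mean, error bars for the SD (n = 2) and symbols for the samples. The metallothionein and importer sums are lower with chaetocin in each sample than in either control, and the exporter sums overlap.

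Other genes of metal handling were read from the same fit. Of 15 genes of copper handling (transporters, chaperones, metalloreductases and *SOD1*), all tested, 1 fell and 0 rose, beside 0.743% and 1.11% of all genes. *STEAP3*, an endosomal metalloreductase that reduces iron and copper, went from 97.6 CPM in control to 42.4 CPM with chaetocin, a log2 fold change of -1.21 (95% interval -1.70 to -0.72, edgeR adjusted p = 0.0382). The copper importer *SLC31A1* had -0.07 (-0.39 to 0.24) and the copper exporter *ATP7A* -0.56 (-1.13 to 0.003). The median of the list was -0.13. Of 9 tested zinc-handling genes outside both families, edgeR and DESeq2 called 0. At an unadjusted p under 0.05, the zinc-sensing receptor *GPR39* was lower (-0.87) and the lysosomal channel *MCOLN1* higher (0.48), beside 9.42% lower and 10.9% higher over all genes.

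Of 12 tested genes of the heavy metal and heat shock response, 2 rose and 0 fell in edgeR, beside 1.11% and 0.743% of all genes, and the median was 0.20. DESeq2, the replicate block and the fit without a filter called 3 higher and 0 lower each, beside 2.35%, 6.31% and 2.48% of all genes higher. *HMOX1*, heme oxygenase 1, had a log2 fold change of 3.05 (edgeR adjusted p = 0.00358), and *HSPA1B*, an inducible HSP70 gene with a near-identical copy in *HSPA1A*, had 1.84 (95% interval 1.25 to 2.44, adjusted p = 0.0279). *SRXN1*, an antioxidant sulfiredoxin, had 1.35 (adjusted p = 0.0552) and was the only other one at an unadjusted p under 0.05. Of the 12 tested genes, 9 had a log2 fold change above 0 and 3 below. *HMOX1* and *HSPA1B* are known to respond to cadmium, and whether a metal has a part in their values was not tested. The paper reports that the rise of *HMOX1* depended on reactive oxygen species.
Metallothioneins also respond to glucocorticoids, and of 9 tested glucocorticoid-responsive genes edgeR called 0, DESeq2 2 lower and 0 higher, beside 2.93% and 2.35% of all genes. At an unadjusted p under 0.05, 4 were lower and 2 higher, beside 9.42% and 10.9% of all genes. The lower ones were *ERRFI1* (log2 fold change -1.37), *DUSP1* (-0.78, edgeR adjusted p = 0.0586), *PER1* (-0.64) and *SGK1* (-0.58), and the higher ones *CRISPLD2* (1.54) and *KLF9* (0.81). The median of this list was -0.55, beside 0.008 over all genes.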

How the data were processed

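The authors deposited raw counts per Ensembl gene, 1 table per sample, as whole numbers without normalization. The submitters' processing notes name cutadapt, TopHat2, TopHat, SAMtools and GRCh37, and the counting tool with its strand and multi-mapping settings is not given in the sources used here. For symbols, exon lengths and positions GENCODE v29 (GRCh38) was used, where 52338 of 57905 identifiers were found, and promoters came from RefSeq (GRCh38.p14). The tables hold no coordinates.

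Counts were tested with edgeR 4.0.16 (R 4.3.3) by the quasi-likelihood method after filterByExpr (minimum count 10) and TMM normalization, robustly and without a block, on all 4 samples. The 95% intervals and standard errors were derived from the F statistic. DESeq2 1.42.0, the tool named in the study's methods, was an alternative, as were RLE factors, other filters, a block and leaving out each sample. The script was checked on simulated data. CPM used the TMM-scaled library totals of the genes kept by the filter. Totals over all genes were 21241984 to 32590479. As the floor 3 counts were taken, which covers counting error only. Every member was named, and of each list the called genes, at most 4. Genes of the lists without a call were chosen after their values were seen, except SLC31A1 and ATP7A. The members and lists were chosen with earlier results of these data known. 1 neighbouring gene and 1 leukocyte marker are counted but not reported here.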

Additional observations from a re-analysis of the deposited data

How the results depend on the processing

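Main counts were 3 members lower and 0 higher. Dropping the filter gave 7 and 1, DESeq2 gave 5 and 1, and an unadjusted p under 0.05 gave 8 and 2, while RLE size factors gave 3 and 0. The titles number the samples 1 and 2 in both groups, and over 16416 genes the difference of sample 1 from sample 2 in control had r = 0.123 with that in chaetocin. The samples share only a number, and a replicate block gave 7 lower and 1 higher, when 6.41% of all genes were called lower. For the exporters, 1 was lower without a filter, with DESeq2, with the block and at an unadjusted p, where 1 was also higher. For the importers, 1 was higher in these settings, and 3 were lower without a filter and with the block, 4 at an unadjusted p, and 0 with at least 10 counts in every sample or with protein-coding genes only. Leaving out 1 sample at a time gave 0 to 10 members lower and 0 to 1 higher, with 0 to 3 metallothioneins, 0 to 1 exporters and 0 to 6 importers lower and 0 to 1 importers higher. In the lists, 2 copper genes were lower without a filter and with the block. Of the glucocorticoid genes, 2 were higher with the block and 1 without a filter, and 2 (DESeq2), 4 (block) and 3 (no filter) were lower. Of the cluster neighbours, 1 was lower in each of these 3 settings. The shares of all genes called higher and lower were 2.35% and 2.93% (DESeq2), 6.31% and 6.41% (block) and 2.48% and 2.39% (no filter). At an unadjusted p they were 10.9% and 9.42%. With at least 10 counts in every sample they were 0.787% and 0.552%, and with protein-coding genes only 1.12% and 0.707%.

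With library totals alone, the log2 ratio of summed levels was 0.0566 for exporters, which reversed their direction, and -0.29 for importers. Leaving out 1 sample at a time gave -1.27 to -0.45 for metallothioneins, -0.21 to -0.01 for exporters and -0.48 to -0.43 for importers. Adding the pseudogenes gave -0.79 for metallothioneins. Uncalled members with values near 0 reversed. The stricter filter of 10 counts gave a log2 fold change of 0.0069 for *SLC30A7* and 0.0051 for *SLC39A8*, and protein-coding genes only gave 0.0132, 0.0116 and, for *SLC39A1*, 0.0001. Leaving out 1 sample at a time gave -0.046 to 0.49 for *MT1M*, -0.14 to 0.33 for *MT1X*, -0.84 to 0.74 for *MT3*, -0.20 to 0.28 for *SLC30A4*, -0.42 to 0.0861 for *SLC30A6*, -0.0803 to 0.0421 for *SLC30A7*, -0.19 to 0.12 for *SLC39A1*, -0.16 to 0.12 for *SLC39A8* and -0.43 to 0.0676 for *SLC39A9*. *MT1E* stayed between -1.03 and -0.86, *MT1F* between -1.19 and -0.95 and *SLC39A14* between -0.94 and -0.79. For all of these the cause was not tested. With 2 samples a group, the 95% interval of a tested member reached a median of 0.41 to either side of its log2 fold change.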
